A study of Mus musculus with 24 samples.

Results

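The 10 genes described here build, bind or regulate the actin and intermediate filaments that give a macrophage its shape. They are the calponins Cnn2 and Cnn3, the transgelin Tagln2, the tropomyosin Tpm1, the cytoplasmic actins Actb and Actg1, the intermediate filament gene Vim, the filament elongation factor Vasp, the bundling protein gene Fscn1 and the coronin Coro1a. They were chosen by gene symbol, and each symbol matched 1 of 56691 genes in the RAW264.7 table and in the bone marrow-derived macrophage (BMDM) table. The choice was made with earlier results of these data known. Counts of called members beside shares over all genes are therefore a description and no test of an excess. The study asked how loss of olfactomedin-like 3 (Olfml3), a secreted glycoprotein of the olfactomedin family, alters macrophages with and without lipopolysaccharide (LPS), an outer membrane component of Gram-negative bacteria.

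Poly(A) RNA was sequenced from 24 bulk libraries in 8 groups of 3, 4 groups per cell type. RAW264.7 is a macrophage-like line from a male mouse, and its Olfml3 knockout was made by lentiviral CRISPR and isolated from single cells, so it samples clonal cells. BMDMs were grown for 6 days in L929-conditioned medium from the tibia and fibula marrow of 8-week-old male C57BL/6 mice, either wild type or Olfml3-/- throughout the body. In both cell types, wild-type and knockout cells received PBS or 100 ng/mL LPS for 4 h. Groups follow the sample titles, since the genotype tag contradicts the title in 12 of 24 samples. The study's text calls the replicates biological, but the labels name no separate cultures or animals, so p-values measure only the spread between these libraries, which may be technical. In bulk RNA, fewer cells of a type and less RNA per cell cannot be told apart.

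Olfml3 itself was checked first. In BMDMs it averaged 0.597 ± 0.0611 FPKM (SD, n = 3) in wild type and 0.0167 ± 0.0115 in knockout with PBS, and 0.247 ± 0.00577 and 0.00333 ± 0.00577 with LPS. FPKM is the number of fragments per kilobase of exon, scaled to the library total. In RAW264.7 it went against the label, at 0.163 ± 0.0231 FPKM in wild type and 0.950 ± 0.275 in the libraries labelled knockout with PBS, and at 0.183 ± 0.0924 and 18.7 ± 0.311 with LPS. Directions in RAW264.7 are therefore given below for the libraries labelled knockout. Libraries held 11638273 to 16478616 counts in RAW264.7 and 17121240 to 22873094 in BMDMs. In RAW264.7, the first PBS replicate labelled knockout stood apart. In the 2 replicate pairs that hold it, the variance between replicates was 88.8 and 90 times that of counting noise. This was 1.87 to 2.83 times in the other 10 RAW264.7 pairs and 1.8 to 11.4 times in the 12 BMDM pairs. Results that use the first PBS replicate labelled knockout are therefore also given without it. Among the BMDM pairs the highest values, 11.4, 9.28 and 5.14, were those of wild type with LPS.

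Actin monomers assemble into filaments that push the membrane forward, pull at adhesions and enclose particles taken up by a macrophage. Other proteins decide what a filament does. Ena/VASP proteins speed elongation at the growing end, fascin packs filaments into the bundles of protrusions, coronins act with the branching Arp2/3 complex and with disassembly factors, and tropomyosins and calponins lie along filaments and govern access of myosin and severing proteins. Vimentin forms a separate network of intermediate filaments that gives mesenchymal and blood-derived cells mechanical strength. Serum response factor (SRF) drives many actin genes from CArG boxes in their promoters, through cofactors (MRTFs) that monomeric actin holds back.

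The genes lie at these positions in GRCm38 with the GENCODE M21 annotation, all as protein-coding genes. The deposited tables give other coordinates for 10 of 10 members, so these positions are from the reference and not from the files. Cnn2 (ENSMUSG00000004665) is at chr10:79988584-79996062 on the plus strand and Cnn3 (ENSMUSG00000053931) at chr3:121426497-121458207 on the plus strand. Tagln2 (ENSMUSG00000026547) is at chr1:172500047-172507380 on the plus strand and Tpm1 (ENSMUSG00000032366) at chr9:67022590-67049406 on the minus strand. Actb (ENSMUSG00000029580) is at chr5:142903115-142906754 on the minus strand, 53589 bases from Fscn1 (ENSMUSG00000029581) at chr5:142960343-142973185 on the plus strand. Actg1 (ENSMUSG00000062825) is at chr11:120345690-120348542 on the minus strand and Vim (ENSMUSG00000026728) at chr2:13573927-13582826 on the plus strand. Vasp (ENSMUSG00000030403) is at chr7:19256929-19271817 and Coro1a (ENSMUSG00000030707) at chr7:126699773-126707787, both on the minus strand.

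Actb and Actg1 encode nearly identical proteins, and their reads must be told apart by base differences in the RNA. The 2 coding sequences (Actb transcript ENSMUST00000100497.10 and Actg1 transcript ENSMUST00000071555.12) have 1128 bases each and differ at 128 of them, an identity of 88.7%. Their longest identical stretch is 62 bases, shorter than a read. The first 30 coding bases, from base 1 of the start codon, hold 8 of these differences, shown in capitals. Some of the 8 change the amino acid, and this stretch differs more than the coding sequence as a whole.
Actb: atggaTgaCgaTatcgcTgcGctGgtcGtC
Actg1: atggaAgaAgaAatcgcCgcActCgtcAtT
Read from Actb to Actg1, the substitutions are T6A, C9A, T12A, T18C, G21A, G24C, G28A and C30T. Gene descriptions were searched for the name of each actin together with the word pseudogene. Only Actb-ps1 was found, with 0 counts in RAW264.7 and 4 in BMDMs. Processed copies described in other words would be missed. How the authors assigned reads that match both genes is not given in the sources used here.

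RefSeq promoters on GRCm38.p6, short windows around each start, were matched for 9 of the 10 genes, all but Actb. A CArG box was searched by its standard letters on both strands. It was found in 1.63% of 32851 promoters, and among these genes in those of Cnn2 and Actg1. The sites are shown in capitals because the SRF cofactors are measured below.
Cnn2, chr10:79988534-79988563, plus strand: cgcttccacgCCTTATAAGGacatttgctc
Actg1, chr11:120348566-120348595, minus strand: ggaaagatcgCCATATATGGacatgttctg
A binding site of NF-kappaB, the LPS-activated transcription factor, was searched in the same way and found in 8.46% of promoters, and here in those of Tagln2 and Vim. These are matches of letters, and no binding was measured.

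Actb was the most abundant of the 10 genes in all 8 groups. Its FPKM averaged 1159 to 2414 in RAW264.7 and 1839 to 3044 in BMDMs. Group means of Actg1, Vim, Tagln2, Vasp and Coro1a lay between 26.04 and 775.8 FPKM and those of Tpm1 between 7.397 and 32.12. Cnn2 was scarce, with means of 0.0767 to 3.48 FPKM, and Fscn1 and Cnn3 exceeded 10 FPKM in BMDMs with LPS alone. The 10 genes took 0.768% of the counts in wild-type RAW264.7 with PBS and 0.928% in wild-type BMDMs with PBS. With LPS these shares were 1.12% and 1.43%. Replicates were tight. For genes averaging at least 10 FPKM, the coefficient of variation over 3 libraries was 0.351 to 8.75% in 51 gene and group pairs, but 7.52 to 30.7% in the 7 such pairs of the PBS libraries labelled knockout. The tables of the 2 cell types were normalised separately, so levels set across them are only approximate and were not tested.

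**Figure D1:**
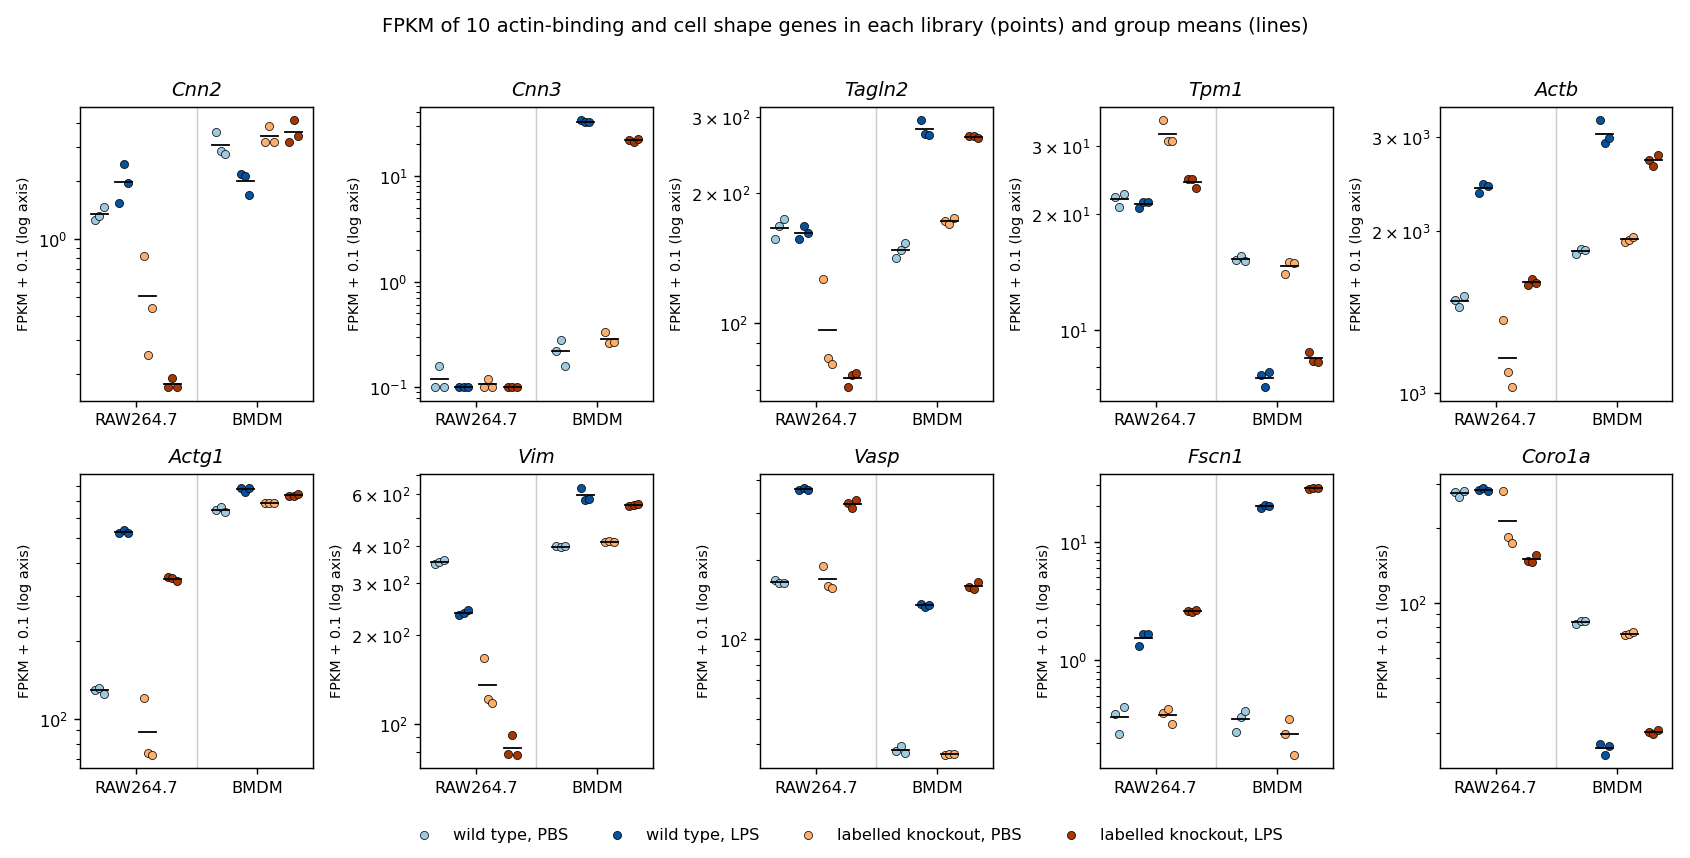
Each panel shows 1 gene, with FPKM + 0.1 on a log axis for 3 libraries per group (points) and their mean (line), RAW264.7 on the left and BMDM on the right of each panel. Cnn3 and Fscn1 in BMDMs show the largest step from PBS to LPS (Cnn3 0.12 to 32.65 and Fscn1 0.217 to 19.78 mean FPKM in wild type), and Vim in RAW264.7 is lower in the libraries labelled knockout under both treatments.

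Without LPS, 3 of the 10 genes were lower in RAW264.7 labelled knockout than in wild type and none was higher, where 8.55% of 26740 tested genes were called in either direction and 3.77% were called lower. Of genes averaging at least 1 FPKM, as 8 of the 10 do in RAW264.7, 13.2% were called. A gene was called at a Benjamini-Hochberg adjusted p under 0.05 in limma, fitted on log2(FPKM + 0.1) over the 12 libraries of a cell type, with a fold change of at least 1.5. The median log2 difference was −0.39 over the 10 genes and 0.02 over all genes of at least 1 FPKM. Vim, Tagln2 and Cnn2 fell. In 6 of the 10 genes the libraries of the 2 groups did not overlap, against 24.1% of tested genes. Here and below, that share includes genes under 1 FPKM, where libraries at 0 overlap. It was not computed for genes of at least 1 FPKM, so it cannot show an excess among the 10 genes. Comparisons within a cell type share libraries and are not independent of each other.

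Vim, the vimentin gene, was read at 348.67, 352.48 and 358.3 FPKM in wild type and at 167.39, 121.65 and 117.02 in the libraries labelled knockout with PBS. Every labelled-knockout library was below every wild-type library, and the highest was replicate 1. The mean was 2.64-fold lower (log2 −1.40, SE 0.131, adjusted p = 0.000133 by limma). Tagln2, a small calponin-related protein that stabilises filaments in non-muscle cells, was at 156.6, 167.9 and 173.67 FPKM against 126.27, 82.83 and 80.44, again without overlap, and fell by 0.81 on the log2 scale (adjusted p = 0.00984 by limma). Cnn2, the calponin of non-muscle and blood cells, was low throughout, with 38, 48 and 44 counts in wild type and 29, 6 and 12 in the libraries labelled knockout. Its 130 and 47 summed counts gave a ratio of 3.04 with an exact 95% interval of 2.16 to 4.33, which covers counting error only, and limma's adjusted p was 0.0218.

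The other 7 genes did not pass both thresholds with PBS. Tpm1, which encodes a tropomyosin, stood higher at 34.91, 30.71 and 30.74 FPKM against 22.02, 20.7 and 22.43, with a log2 difference of 0.56 (adjusted p = 0.00154 by limma) that is 1.48-fold and just under the fold threshold. Actb read 1489.04, 1445.82 and 1512.12 FPKM in wild type and 1363.56, 1091.62 and 1023.15 in the libraries labelled knockout. Its difference was small, at log2 −0.37 (adjusted p = 0.0478 by limma). Actg1 showed log2 −0.58 (adjusted p = 0.0536 by limma) and Coro1a log2 −0.41 (adjusted p = 0.113 by limma). Vasp and Fscn1 differed by 0.02 and 0.09 on the log2 scale, with 95% intervals of −0.17 to 0.22 and −0.34 to 0.52.

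Replicate 1 labelled knockout lay between its group and the wild type for Vim, Tagln2, Actb and Cnn2, and within the wild-type range for Coro1a. Without it, 5 genes were called lower. Vim was then at log2 −1.57, Tagln2 at −1.02, Cnn2 at −2.02, Actg1 at −0.82 (adjusted p = 6.36e-06 by limma) and Coro1a at −0.62 (adjusted p = 4.74e-05 by limma). Cnn2 lost its call without any 1 of the 3 wild-type PBS libraries or without replicate 3 labelled knockout (adjusted p = 0.0613 to 0.0726 by limma). With the 2 groups fitted alone, Cnn2 (adjusted p = 0.138 by limma) and Tagln2 (adjusted p = 0.113 by limma) were both lost.

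With LPS, 7 of the 10 genes differed between RAW264.7 labelled knockout and wild type, where 17.3% of tested genes and 28.1% of those of at least 1 FPKM were called. Cnn2, Vim, Tagln2, Coro1a, Actg1 and Actb were lower and Fscn1 was higher, against 7.6% of tested genes called lower and 9.73% called higher. The median over the 10 genes was −0.60, and over all genes of at least 1 FPKM −0.02. Libraries did not overlap in 9 of the 10 genes, against 40.2% of tested genes.

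Cnn2 showed the largest difference of the 10 genes. Wild type with LPS had 45, 85 and 66 counts (1.43, 2.35 and 1.86 FPKM) and the libraries labelled knockout had 2, 3 and 2 (0.07, 0.09 and 0.07 FPKM). The summed counts, 196 and 7, gave a ratio of 24.7 with an exact 95% counting interval of 11.8 to 62.4. On the log2(FPKM + 0.1) scale, which understates changes at so low a level, the difference was −3.46 (adjusted p = 0.00018 by limma).

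Vim read 234.06, 236.6 and 243.02 FPKM in wild type with LPS and 78.88, 91.19 and 78.41 in the libraries labelled knockout, a 2.88-fold fall (adjusted p = 5.91e-05 by limma). Tagln2 read 156.8, 167.74 and 161.14 FPKM against 71.03, 75.82 and 76.59, a 2.17-fold fall (adjusted p = 0.00105 by limma). Coro1a, a leukocyte coronin of the actin cortex and the phagosome, read 282.27, 290.07 and 280.75 FPKM against 146.65, 145.97 and 155.02. The groups did not overlap, and the fall was 1.91-fold (adjusted p = 0.00295 by limma).

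Both actins were lower by about the same amount with LPS. Actb averaged 2414 ± 48.5 FPKM (SD, n = 3) in wild type and 1607 ± 22.2 in the libraries labelled knockout (log2 −0.59, adjusted p = 0.00377 by limma). Actg1 averaged 528.8 ± 8.45 and 347.9 ± 6.14 FPKM (log2 −0.60, adjusted p = 0.0277 by limma). Each lies at the edge of the fold threshold, and after rescaling to equal sums (TPM) the values were −0.35 for Actb and −0.37 for Actg1, and neither was called. Fscn1, the fascin gene, rose from 47, 70 and 68 counts to 88, 97 and 94, or from 1.453 ± 0.202 to 2.5 ± 0.0557 FPKM (log2 0.75, adjusted p = 0.0195 by limma). These 3 calls were fragile. Actg1 lost its call without any 1 of the 6 LPS libraries (adjusted p = 0.0661 to 0.0756 by limma), Actb without replicate 2 or 3 of wild type or replicate 1 or 3 labelled knockout with LPS (log2 −0.58, under the fold threshold, in each), and Fscn1 without replicate 1 of wild type or replicate 1 or 3 labelled knockout with LPS (adjusted p = 0.0541 to 0.07 by limma). All 3 were lost, and 4 genes left called, without replicate 1 or 3 labelled knockout with LPS. In limma each gene has 1 spread over all RAW264.7 libraries, so the first PBS replicate labelled knockout enters these LPS tests too. Without that PBS replicate all 3 genes kept their call, at the same log2 differences. The adjusted p by limma was then 1.54e-05 for Actg1, 2.5e-05 for Actb and 0.0182 for Fscn1. Tpm1 and Vasp differed by log2 0.19 and −0.19 and were not called.

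**Figure D2:**
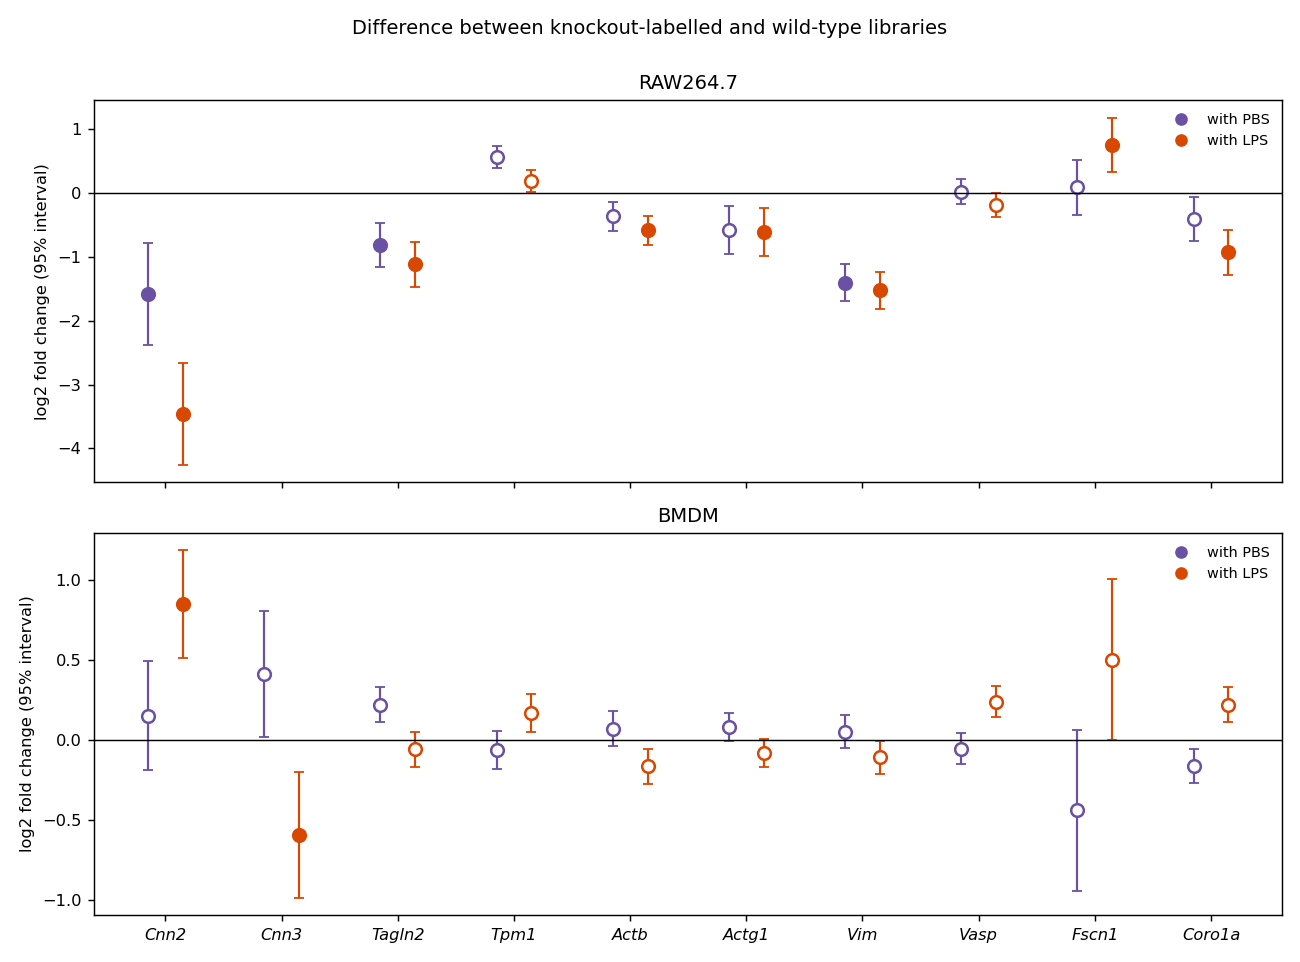
Log2 difference of the libraries labelled knockout from wild type (y axis, with 95% limma intervals) for each gene, PBS in purple and LPS in orange, filled where called and open where not, RAW264.7 and BMDM in separate panels. In RAW264.7 the Cnn2, Vim and Tagln2 points lie below 0 under both treatments, and in BMDMs the filled points are Cnn2 at 0.85 and Cnn3 at −0.59, both with LPS. Cnn3 is left out for RAW264.7, which had 4 counts of it in 12 libraries.

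Some of 8 macrophage markers also differed between RAW264.7 labelled knockout and wild type. All 8 (Adgre1, Itgam, Csf1r, Cd68, Cd14, Lyz2, Ptprc and Spi1) were at 1 FPKM or more in every group. Their summed FPKM was 3490 to 3540 in wild-type RAW264.7 with PBS and 1250 to 1560 in the libraries labelled knockout, and 4120 to 4250 and 1450 to 1520 with LPS. With PBS 5 of 8 were called (Adgre1, Cd14, Itgam, Lyz2 and Ptprc), 1 higher and 4 lower. With LPS 4 of 8 were called (the same genes without Adgre1), 1 higher and 3 lower. Csf1r, Cd68 and Spi1 were called in neither. Of genes of at least 1 FPKM, 13.2% were called with PBS and 28.1% with LPS. Their part in the values of the 10 genes was not tested. Markers of fibroblasts and muscle, in which Tpm1 and Vim are abundant, had 0 of 12 genes at 1 FPKM in any group and summed to at most 1.59 FPKM in RAW264.7 and 2.68 in BMDMs.

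In BMDMs with PBS none of the 10 genes was called between knockout and wild type, where 1.81% of 26973 tested genes and 3.13% of those of at least 1 FPKM were called. At an unadjusted p under 0.05 there were 3, Tagln2, Coro1a and Cnn3, and edgeR and DESeq2 on the counts called none. The log2 differences ran from −0.44 for Fscn1, which had 3 to 18 counts per library, to 0.41 for Cnn3, which had 4 to 15. For the abundant genes the intervals were narrow. Actb read 1817.84, 1856.3 and 1842.27 FPKM in wild type and 1908.87, 1929.45 and 1956.25 in knockout, a log2 difference of 0.07 with a 95% interval of −0.04 to 0.18. For Vim the interval was −0.05 to 0.16, where the estimate in RAW264.7 was −1.40. Tagln2 had the smallest adjusted p (0.034 by limma), with 141.7, 147.73 and 152.78 FPKM in wild type and 171.77, 168.96 and 174.84 in knockout, log2 0.22 and under the fold threshold. In 7 of the 10 genes the libraries did not overlap, against 20.5% of tested genes. For Tpm1, Vasp, Vim, Actb and Actg1 among those 7, the 95% interval of the difference covered 0.

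With LPS, 2 of the 10 genes were called between BMDM genotypes, Cnn2 higher and Cnn3 lower in knockout, where 4.76% of tested genes and 8.34% of those of at least 1 FPKM were called. Over tested genes 3.23% were called higher and 1.53% lower. The libraries of the 2 genotypes did not overlap in any of the 10 genes, against 26.7% of tested genes not overlapping. That share again includes genes under 1 FPKM and is no background for abundant genes. Over all genes of at least 1 FPKM the median log2 difference was 0.14, and over the 10 genes 0.06.

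Cnn2 was read at 2.06, 2.03 and 1.58 FPKM (114, 110 and 87 counts) in wild type with LPS and at 3.09, 4.03 and 3.32 FPKM (165, 226 and 140 counts) in knockout. It was 1.8-fold higher (log2 0.85, SE 0.15, adjusted p = 0.00376 by limma), and 0.71 above the median of all genes. It stayed called in 20 of 20 alternatives, at log2 0.63 to 0.93. In RAW264.7 the same comparison gave −3.46. Cnn3, the acidic calponin, was read at 33.66, 32.26 and 32.02 FPKM in wild type with LPS and at 21.99, 20.83 and 22.16 in knockout, a 1.51-fold difference (log2 −0.59, adjusted p = 0.0444 by limma). limma uses 1 spread per gene over all 12 BMDM libraries, of which the PBS libraries hold 4 to 15 counts of Cnn3. The call was lost after TPM rescaling (adjusted p = 0.188 by limma) and when any 1 of 9 of the 12 BMDM libraries was left out (adjusted p = 0.0579 to 0.119 by limma). It was kept in 8 of 20 alternatives, and the log2 difference ran from −0.75 to −0.56 over all of them.

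Smaller differences also passed the adjusted p. Vasp was at 136.38, 132.03 and 134.73 FPKM in wild type with LPS and 157.35, 154.35 and 164.13 in knockout (log2 0.24, adjusted p = 0.00418 by limma), and Coro1a at 27.03, 24.55 and 26.55 against 30.36, 29.75 and 30.98 (log2 0.22, adjusted p = 0.0105 by limma). Relative to the median of all genes these were 0.10 and 0.08. Actb was lower by log2 0.16 (−0.16, adjusted p = 0.0436 by limma), or −0.31 relative to the median. Without replicate 1 of wild type with LPS, Actb no longer passed (log2 −0.12, adjusted p = 0.0916 by limma). Vasp and Coro1a still did (adjusted p = 0.00748 and 0.00962 by limma).

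In BMDMs the macrophage markers summed to 14800 to 15200 FPKM in wild type and 16600 to 17800 in knockout with PBS, and to 12200 to 12500 and 12900 to 13200 with LPS. Proliferation markers (Mki67, Top2a, Ccnb1, Cdk1, Birc5 and Pcna) were higher in knockout, with 5 of 6 called under each treatment. Of genes of at least 1 FPKM, 3.13% were called with PBS and 8.34% with LPS. The markers summed to 302 to 326 FPKM against 382 to 402 with PBS and to 134 to 142 against 168 to 170 with LPS. In RAW264.7 these sums overlapped between genotypes, at 525 to 537 and 482 to 538 with PBS and 305 to 314 and 307 to 312 with LPS. None of the 6 was called there with PBS. With LPS 2 were called, Mki67 and Pcna, 1 higher and 1 lower, where 28.1% of genes of at least 1 FPKM were called. The part of these markers in the BMDM differences was not tested.

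LPS changed more of these genes than genotype did in BMDMs. In wild-type BMDMs 8 of 10 genes were called, 5 higher (Cnn3, Fscn1, Vasp, Tagln2 and Actb) and 3 lower (Coro1a, Tpm1 and Cnn2), where 40.4% of tested genes were called, 7.94% higher and 32.5% lower. In knockout BMDMs 6 were called, 4 higher (Fscn1, Cnn3, Vasp and Tagln2) and 2 lower (Coro1a and Tpm1), where 38.9% were called, 8.02% higher and 30.9% lower. Among genes of at least 1 FPKM the called shares were 68.2 and 64.1%, so the counts of 8 and 6 are near the background, while more of the 10 genes were called higher than lower, unlike genes at large. Genes of at least 1 FPKM had a median log2 difference of −0.73 in wild type and −0.62 in knockout on this scale (−0.21 and −0.23 in RAW264.7), so values are also given relative to that median.

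Cnn3 was nearly silent without LPS, with 8, 12 and 4 counts in wild-type BMDMs, and had 2297, 2155 and 2175 counts with LPS. The summed counts gave a ratio of 273 with an exact 95% counting interval of 183 to 426. In knockout the counts were 15, 11 and 9 with PBS and 1448, 1443 and 1152 with LPS, a ratio of 116 (83.4 to 167). RAW264.7 did not show this. It had 4 Cnn3 counts in 12 libraries, 3 of them in 1 wild-type PBS library, and 10 of 12 libraries had 0, which allows at most 0.0599 to 0.0849 FPKM per library.

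Fscn1 behaved alike in BMDMs, with 10, 15 and 18 counts with PBS and 19.21, 20.15 and 19.99 FPKM with LPS in wild type. The ratio of summed counts was 91.6 (67.9 to 127) in wild type and 194 (133 to 295) in knockout, where the LPS libraries read 27.58, 28.54 and 28.08 FPKM. In RAW264.7 it also rose, from 0.25, 0.14 and 0.3 to 1.22, 1.58 and 1.56 FPKM in wild type (log2 2.26, adjusted p = 1.48e-05 by limma) and from 0.26, 0.29 and 0.19 to 2.51, 2.44 and 2.55 FPKM in the libraries labelled knockout (log2 2.92). The level with LPS was lower in RAW264.7 than in BMDMs in every library. Fascin is a known marker of mature dendritic cells. The 8 mature dendritic cell markers summed to 45.1 to 52.3 FPKM with PBS and 328 to 374 with LPS in BMDMs, but Ccr7, Flt3, Lamp3 and Zbtb46 were under 1 FPKM in every group. In RAW264.7 they summed to 15.8 to 28.5 FPKM with PBS, and to medians of 276 in wild type and 469 in the libraries labelled knockout with LPS.

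Vasp, the Ena/VASP elongation factor, rose in all 4 LPS comparisons. It went from 37.75, 39.12 and 37.05 to 136.38, 132.03 and 134.73 FPKM in wild-type BMDMs (log2 1.82, or 2.55 relative to the median) and from 168.17, 163.9 and 162.96 to 368.56, 375.64 and 368.8 FPKM in wild-type RAW264.7 (log2 1.17). Libraries did not overlap in either cell type. In the knockout libraries the log2 differences were 2.11 in BMDMs and 0.96 in RAW264.7.

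Coro1a and Tpm1 fell in BMDMs. Coro1a went from 82.39, 84.8 and 84.84 to 27.03, 24.55 and 26.55 FPKM in wild type (log2 −1.69, adjusted p = 1.16e-09 by limma), which is −0.96 relative to the median. In RAW264.7 wild type it read 278.47, 266.65 and 280.27 FPKM with PBS and 282.27, 290.07 and 280.75 with LPS, and in the libraries labelled knockout log2 −0.48, under the fold threshold. Tpm1 went from 15.07, 15.39 and 14.95 to 7.54, 6.98 and 7.67 FPKM in wild-type BMDMs (log2 −1.02), but relative to the median this was −0.30. With median-ratio scaling, which divides by the typical gene rather than the library total, Tpm1 was at −0.23 and not called. Tagln2 went from 141.7, 147.73 and 152.78 to 294.35, 273.42 and 272.6 FPKM in wild-type BMDMs (log2 0.93) and differed by log2 −0.04 in wild-type RAW264.7 (95% interval −0.38 to 0.31). Cnn2 was lower with LPS in wild-type BMDMs by log2 0.62 (−0.62, adjusted p = 0.00554 by limma), but 0.11 above the median, and its sign turned with median-ratio scaling (0.15, adjusted p = 0.465 by limma).

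**Figure D3:**
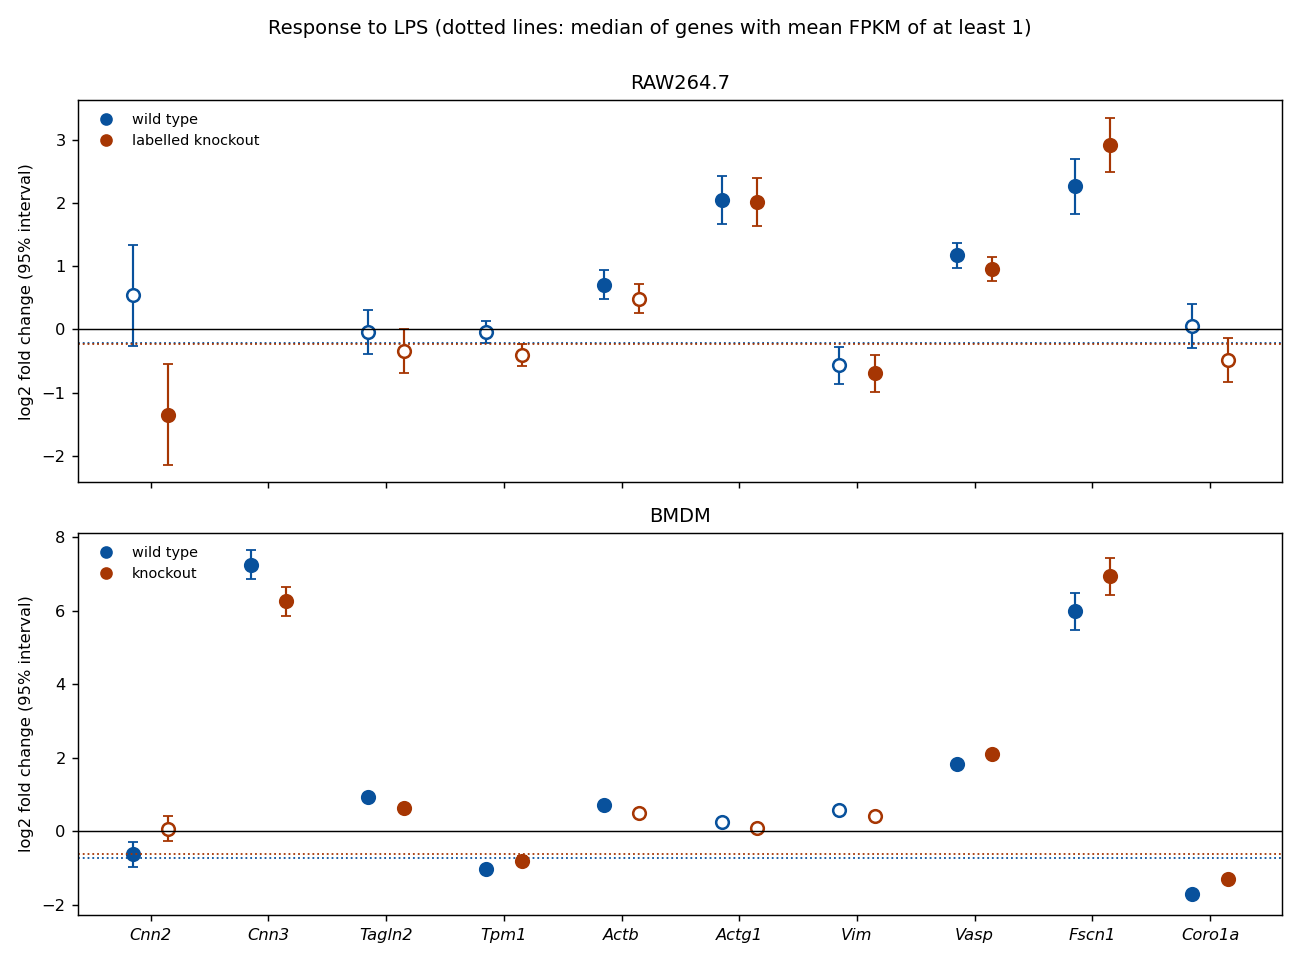
Log2 difference of LPS from PBS (y axis, with 95% limma intervals) for each gene, wild type in blue and knockout-labelled in brown, filled where called and open where not, with dotted lines at the median of all genes with a mean of at least 1 FPKM. Fscn1 and Cnn3 in BMDMs lie near 6 to 7, Vasp lies above 0 in both cell types, and Coro1a and Tpm1 lie below 0 in BMDMs but near the dotted lines for Tpm1.

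In RAW264.7, LPS raised Actb, Actg1, Vasp and Fscn1 in wild type, 4 of 10 genes where 18.3% of tested genes were called (5.8% higher) and 32.6% of those of at least 1 FPKM. In the libraries labelled knockout it raised Actg1, Vasp and Fscn1 and lowered Vim and Cnn2, 5 of 10 where 22.1% were called (7.45% higher, 14.6% lower) and 37.9% of those of at least 1 FPKM. Vim was also lower in wild type (log2 −0.57, adjusted p = 0.00936 by limma, under the fold threshold), from 348.67, 352.48 and 358.3 to 234.06, 236.6 and 243.02 FPKM. In BMDMs Vim went the other way, from 399.45, 396.65 and 399.71 to 632.94, 574.17 and 577.97 FPKM (log2 0.58, adjusted p = 2.05e-06 by limma), 1.49-fold and just under the threshold. Relative to the median this was 1.31, and Vim was called higher with median-ratio scaling, edgeR and DESeq2 (log2 1.35 to 1.38) and without replicate 2 or 3 of wild type with LPS (log2 0.60 in both). Without replicate 1 labelled knockout with PBS, LPS also raised Actb in the labelled knockout (log2 0.60), and Vim was at log2 −0.53, under the fold threshold. With median-ratio scaling, edgeR and DESeq2, Actb was called higher there (log2 0.71 to 0.75) and Vim was not called (log2 −0.47 to −0.42). Cnn2 lost its call there with a pseudocount of 1 (log2 −0.36, adjusted p = 0.101 by limma), with the 2 groups alone (adjusted p = 0.0892 by limma) and without replicate 1 or 3 labelled knockout with LPS (adjusted p = 0.0517 and 0.0508 by limma).

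The 2 cytoplasmic actins parted under LPS. Actg1 rose 4.11-fold in wild-type RAW264.7, from 129.15, 131.77 and 124.59 to 522.14, 538.34 and 526.05 FPKM, where Actb rose 1.63-fold. In BMDMs Actg1 went from 644.25, 659.91 and 634.64 to 786.81, 754.75 and 785.81 FPKM, log2 0.26 and not called, where Actb rose 1.65-fold (log2 0.73). Relative to the median of all genes these were 0.99 and 1.45, and with median-ratio scaling, edgeR and DESeq2 Actg1 was called higher, at log2 1.04 to 1.07. The ratio of Actb to Actg1 within a library does not depend on library scaling. It fell from 11.5 ± 0.585 (SD, n = 3) with PBS to 4.56 ± 0.0517 with LPS in wild-type RAW264.7, and from 13.4 ± 1.85 to 4.62 ± 0.104 in the libraries labelled knockout. In BMDMs it went the other way, from 2.85 ± 0.0496 to 3.92 ± 0.157 in wild type and from 2.82 ± 0.0376 to 3.70 ± 0.0605 in knockout. The ratio shows unequal change of the 2 genes, not which of them changed. The ranges of PBS and LPS libraries did not overlap in any of the 4 cases, and no test was run on the ratio.

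**Figure D4:**
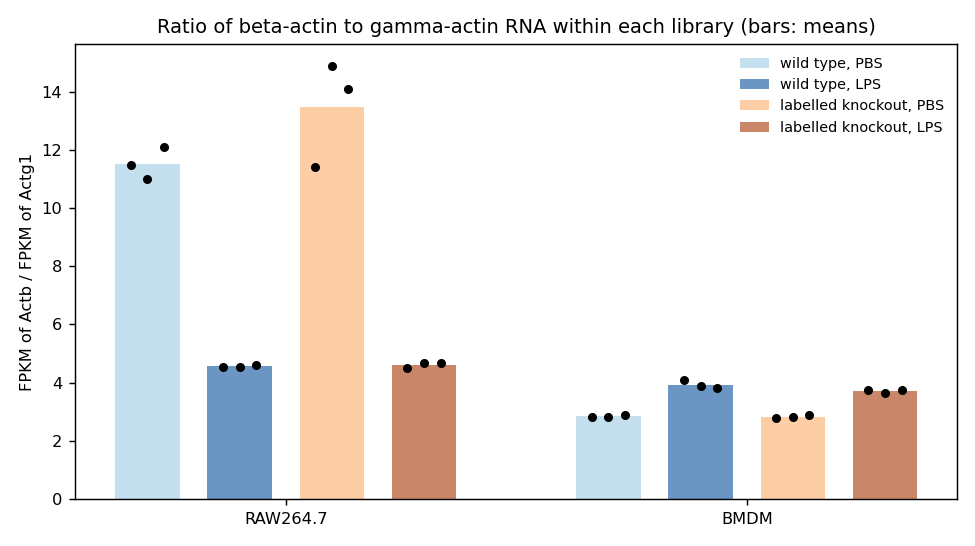
Ratio of Actb to Actg1 FPKM (y axis from 0) per library (points) with the group mean (bars), RAW264.7 and BMDM groups of 3 libraries each. With LPS the RAW264.7 bars drop from 11.5 and 13.4 to 4.56 and 4.62, and the BMDM bars rise from 2.85 and 2.82 to 3.92 and 3.70.

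The interaction of genotype and LPS asks whether the genotype difference with LPS departs from that with PBS. In BMDMs it was called for Cnn3 alone, at log2 −1.0 (SE 0.246, adjusted p = 0.0432 by limma), 1 of 10 genes where 2.91% of tested genes and 5.42% of those of at least 1 FPKM were called. The call was lost in 12 of 19 alternatives, among them TPM (adjusted p = 0.118 by limma) and the fits that leave out any 1 of 10 of the 12 libraries (adjusted p = 0.0648 to 0.0953 by limma). Coro1a (0.38), Vasp (0.29) and Tagln2 (−0.28) passed the adjusted p at less than 1.5-fold (0.0105, 0.0218 and 0.0426 by limma). Without replicate 1 of wild type with LPS, Tagln2 no longer passed (adjusted p = 0.0571 by limma), and Coro1a and Vasp did (0.00959 and 0.0266 by limma). Cnn2 was at 0.70 (adjusted p = 0.0987 by limma) and Fscn1 at 0.94 (adjusted p = 0.131 by limma). In RAW264.7 limma called 0 of the 10, where 1.95% of tested genes and 2.84% of those of at least 1 FPKM were called. At an unadjusted p under 0.05 there were 4 (Cnn2, Tpm1, Fscn1 and Coro1a), and edgeR and DESeq2 on the counts each called 1, Cnn2, at log2 −2.94 (adjusted p = 0.0363) and −2.97 (adjusted p = 0.00647). limma gave Cnn2 −1.88 (adjusted p = 0.125).

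The same comparisons were made for 133 other genes of the actin and shape machinery, of which 131 were in the tables and 125 were tested in RAW264.7 and 126 in BMDMs. In RAW264.7 24 were called between labelled knockout and wild type with PBS, 9 higher and 15 lower, and 32 with LPS, 13 higher and 19 lower. After TPM rescaling these were 11 and 11, and 19 and 10, so the balance of higher and lower depended on scaling. In BMDMs only 2 were called with PBS, both higher, and 11 with LPS, 6 higher and 5 lower. Of all tested genes 8.55, 17.3, 1.81 and 4.76% were called in these comparisons, and of those of at least 1 FPKM 13.2, 28.1, 3.13 and 8.34%.

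Among genes named by rule, thymosin beta 10 (Tmsb10), a monomer-sequestering peptide, was far lower in RAW264.7 labelled knockout, at 5.61 against 68.46 FPKM with PBS (log2 −3.67) and 8.283 against 76.98 with LPS (log2 −3.20). Evl, the Ena/VASP relative of Vasp, was higher, at 7.617 against 0.2967 FPKM with PBS (log2 4.28) and 5.133 against 0.7067 with LPS (log2 2.73). Sptbn1, a spectrin of the membrane skeleton, and Flnc, a filamin, were also higher, by log2 1.81 and 1.69 with PBS. The formin Diaph2 was lower with PBS (log2 −1.66) and Lmna, a nuclear lamin, with LPS (log2 −1.49). In BMDMs with LPS, zyxin (Zyx), an adhesion protein that recruits Ena/VASP proteins, was 31.76 FPKM in knockout and 73.45 in wild type (log2 −1.21). The formins Diaph3 (log2 0.94) and Fmnl3 (log2 0.98) and the lamin Lmnb1 (log2 0.75) were higher. With PBS the 2 genes called were Diaph3 (log2 0.75) and Lmnb1 (log2 0.74). The Arp2/3 complex, which branches filaments, had 0 of 10 genes called in any of the 4 genotype comparisons, beside the shares given above. Smaller differences were present. The median log2 over its 10 genes in RAW264.7 was −0.22 with PBS and −0.38 with LPS. Its summed FPKM in wild type and labelled knockout was 1280 to 1300 and 1030 to 1340 with PBS, and 1350 to 1360 and 1050 to 1070 with LPS. In BMDMs with LPS the sums were 1490 to 1570 in wild type and 1450 to 1480 in knockout.

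With LPS, the balance of higher and lower among the listed genes depended on scaling. In wild-type BMDMs 59 of 126 were called, 16 higher and 43 lower, and with median-ratio scaling 45 higher and 18 lower. In knockout BMDMs 61 were called, 21 higher and 40 lower, or 39 and 14 with median-ratio scaling. Of all tested genes 40.4 and 38.9% were called in these comparisons, and of those of at least 1 FPKM 68.2 and 64.1%. In wild-type RAW264.7 36 of 125 were called, 17 higher and 19 lower, or 27 and 13 with that scaling. In RAW264.7 labelled knockout 50 were called, 23 higher and 27 lower, or 27 and 18. Of all tested genes 18.3 and 22.1% were called in RAW264.7, and of those of at least 1 FPKM 32.6 and 37.9%. The counts of the listed genes are therefore no result about the lists.

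The list genes named here kept their sign with TPM and with median-ratio scaling. Marcksl1, a membrane-linked actin crosslinker, rose from 41.54 to 1060 FPKM in wild-type RAW264.7 and from 28.24 to 1040 in wild-type BMDMs. Rnd1, a small GTP-binding protein that loosens adhesions, rose from 1.403 to 5.887 and from 0.2033 to 19.64 FPKM. In BMDMs Rnd3 rose from 0.98 to 61.59 FPKM, and in wild-type RAW264.7 Marcks, Rhoc and Nes were among the 5 largest changes. The formin Fmnl3 fell in wild-type BMDMs from 10.72 to 0.67 FPKM (log2 −3.82) and Lmnb1 in knockout BMDMs from 30.35 to 2.65 (log2 −3.47).

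The SRF module was looked at after its values were seen. In wild-type BMDMs with LPS, 3 of 3 tested genes were called lower, where 32.5% of all tested genes were called lower and 68.2% of those of at least 1 FPKM were called in either direction. These were Srf from 10.34 to 4.723 FPKM, Mrtfa from 11.25 to 3.267 and Mrtfb from 8.7 to 1.523. With median-ratio scaling Mrtfa (log2 −0.96) and Mrtfb (log2 −1.68) kept their call and Srf (log2 −0.33) did not. For the 2 genes with a CArG box the LPS values in wild-type BMDMs, given above, were log2 0.26 for Actg1 and −0.62 for Cnn2, or 1.07 and 0.15 with median-ratio scaling. Against the same background, 4 of 6 other coronins were called lower and 1 higher in wild-type BMDMs with LPS (2 and 1 with median-ratio scaling). Coro1c, chosen after its values were seen, went from 43.95 to 7.587 FPKM (log2 −2.52, and −1.72 with median-ratio scaling).

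The genes whose pattern was most like each member were taken over 24 libraries after the mean of each cell type was removed, among 5234 to 5235 genes. The measure is Pearson's r of log2 values, given as a description, and libraries of a group share their treatment. Vasp was most like Mapkapk2 (r = 0.995) and Cdkn1a (r = 0.994), Cnn3 like Dram1 (r = 0.993) and Foxp4 (r = 0.992), and Fscn1 like Rab12 (r = 0.991) and Jak2 (r = 0.987). Actg1 was most like Rhoc (r = 0.982), itself on the actin and shape lists, and Dlgap4 (r = 0.98), and Actb like Sertad1 (r = 0.975) and H3f3b (r = 0.973). Vim was most like Anxa6 (r = 0.982), Coro1a like Pitpna (r = 0.984) and Blvra (r = 0.98), and Tpm1 like Acat1 (r = 0.973) and Surf6 (r = 0.963). Tagln2 was most like Txn1 (r = 0.965) and Atp6v0b (r = 0.962), and Cnn2 like Lrrfip2 (r = 0.957) and Mt1 (r = 0.937).

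Overlapping genes could share reads with these genes, those on the opposite strand only if counting ignored strand. The sources used here do not state how strand was treated. Vasp overlaps 1700058P15Rik on the opposite strand, with 517 counts in RAW264.7 and 163 in BMDMs, against 111461 counts of Vasp in RAW264.7. Coro1a overlaps Bola2 on the opposite strand by 26 bases, with 10243 counts of Bola2 in RAW264.7 and 3707 in BMDMs. Cnn3 overlaps Gm42928 on the opposite strand and Gm42929 on its own strand, with 15 and 24 counts in BMDMs. Actg1 overlaps an unnamed gene of 84 bases on its own strand, with 7 counts in RAW264.7 and 5 in BMDMs. Markers of other lineages were also read. Lymphocyte markers had 0 of 7 genes at 1 FPKM, endothelial and epithelial markers summed to at most 0.32 FPKM in RAW264.7 and 0.82 to 6.04 in BMDMs, and granulocyte markers to at most 2.21 in RAW264.7 and 32.2 to 49.5 in BMDMs, where 3 of 7 were at 1 FPKM or more in every group. Ly6g, Mpo, Elane and Retnlg were under 1 FPKM in every BMDM group. Their part in the values of the 10 genes was not tested.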

How the data were processed

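RNA-seq of 24 libraries was analysed from a table for each cell type. In them the authors deposited raw counts and the FPKM of 56691 genes. An FPKM recomputed from each count fell within 1% of the deposited FPKM for 99.88% (RAW264.7) and 99.51% (BMDM) of values over 50 counts. The labels list the build mm10 for 24 samples. The aligner and counter were not given in the sources used here. Both tables were normalised separately and were fitted separately.

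Each cell type was fitted with limma 3.58.1 (R 4.3.3), as 4 group means on log2(FPKM + 0.1), without a trend, for the 26740 (RAW264.7) or 26973 (BMDM) genes above 0 FPKM in at least 1 library, as the study's methods name limma, Benjamini-Hochberg adjustment and a 1.5-fold threshold. Tests were two-sided. Alternatives were a pseudocount of 1, a filter of 1 FPKM in 3 libraries, TPM and median-ratio scaling, the 2 groups alone, the adjusted p alone, the replicate number as a block, each library left out, and edgeR 4.0.16 (quasi-likelihood) and DESeq2 1.42.0 on the counts. The scripts were tested on simulated data. Plots used matplotlib 3.10.9.

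The members and gene lists were chosen with earlier results of these data known. Named were all 10 members, the 5 list genes per comparison with the largest called change and at least 1 FPKM in either group, and the 2 genes most like each member. Some of the genes this rule names are not reported here. Any other gene is stated to be chosen with its values in view, and the list counts under other scalings were added after seeing the data. Intervals on counts cover counting error only.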

Additional observations from a re-analysis of the deposited data

Results flagged for a closer look

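Cnn3 in BMDMs was picked out because the genotype difference with LPS departed from that with PBS, by −1.0 on the log2 scale (adjusted p = 0.0432 by limma for the interaction term). Knockout libraries had 15, 11 and 9 counts against 8, 12 and 4 in wild type with PBS, and 1448, 1443 and 1152 against 2297, 2155 and 2175 with LPS. The log2(FPKM + 0.1) value at a few counts depends on the pseudocount, and over the alternatives the interaction ran from −1.34 to −0.66 with an adjusted p of 0.000137 to 0.118.

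Cnn2 was picked out because the genotype difference with LPS had opposite signs in the 2 cell types, −3.46 in RAW264.7 labelled knockout and 0.85 in BMDM knockout on the log2 scale. Every RAW264.7 library labelled knockout was below every wild-type library (2 to 3 counts against 45 to 85), and every BMDM knockout library was above every wild-type library (140 to 226 counts against 87 to 114). The difference between the cell types was not tested, since the tables were normalised separately, and Olfml3 RNA itself goes against the label in RAW264.7.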

How the results depend on the processing

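Of the log2 differences of the members under all alternatives, 1861 kept their side of the threshold, 63 lost their call, 42 gained one and 3 changed sign where the value was called. Values called in neither fit could change sign and are among the 1861. The 3 are Cnn2 in wild-type BMDMs, LPS against PBS, at 0.15 with median-ratio scaling, 0.12 with edgeR and 0.16 with DESeq2, where the reported value is −0.62. All 3 scale by the typical gene, which in BMDMs was 0.73 lower with LPS. The number of the 10 genes called moved as follows. With the adjusted p alone it was 5 for RAW264.7 genotype with PBS (3 as reported), 8 for LPS within RAW264.7 labelled knockout (5), and in BMDMs 1 for genotype with PBS (0), 5 for genotype with LPS (2) and 4 for the interaction (1). The 2 groups alone gave 1 for RAW264.7 genotype with PBS. For BMDM genotype with LPS, a pseudocount of 1 gave 1 and TPM gave 1. For the BMDM interaction, a filter of 1 FPKM gave 3, TPM 0, edgeR 2 and DESeq2 3, and for the RAW264.7 interaction edgeR and DESeq2 gave 1 each. With each library left out, the counts were 2 to 5 for RAW264.7 genotype with PBS, 4 to 7 with LPS and 0 to 1 for the interaction, 4 to 5 and 4 to 6 for LPS in RAW264.7 wild type and labelled knockout, 0 and 1 to 2 for BMDM genotype with PBS and LPS, 0 to 1 for the BMDM interaction, and 7 to 9 and 6 for LPS in BMDM wild type and knockout. The RAW264.7 PBS count was 5 without replicate 1 labelled knockout, and the RAW264.7 LPS count was 4 without replicate 1 or 3 labelled knockout with LPS. No same-numbered pair of libraries correlated over 0.1 (highest 0.0844 in RAW264.7 and 0.0711 in BMDMs). The median r was 0.0086 for same-numbered and −0.011 for other pairs in RAW264.7, and 0.0287 and −0.015 in BMDMs. Counting noise is part of the spread between replicates and lowers such correlations. Whether replicate numbers pair the libraries is therefore not settled. The replicate block took the BMDM count for genotype with LPS to 1 and that for the interaction to 0, and moved no other count by over 1.5 times. The cause of these moves was not tested.

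The share of called genes that were higher, over all genes, also moved with scaling. It was 56% in RAW264.7 genotype with PBS (TPM 68.9%), 56.1% with LPS (TPM 75%), 31.7% and 33.8% for LPS in RAW264.7 (median-ratio 49.7% and 51.7%), 67.9% for BMDM genotype with LPS (median-ratio 43.3%), 19.7% and 20.6% for LPS in BMDMs (48% and 46.8%) and 65% for the BMDM interaction (46.7%). TPM moved the median of all genes in the RAW264.7 genotype comparisons from 0.02 and −0.02 to 0.20 and 0.22. Depth limits Cnn2 in RAW264.7 and Cnn3 and Fscn1 with PBS, at 85 counts or fewer per library.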
